A study of Mus musculus with 2 samples.

Results

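The respiratory chain and ATP synthase genes of the nucleus were followed in activated mouse B cells transduced to express the microRNA miR-181b, against B cells transduced with a control vector. Members were chosen by name: every array gene name that begins with Nduf, Uqcr, Atp5 or Cox4 to Cox8, and the genes Sdha, Sdhb, Sdhc, Sdhd and Cycs. This gave 83 of the 27962 gene names on the array, read by 116 probes. Of these, 80 name a subunit or cytochrome c: 36 belong to complex I, 4 to complex II, 7 to complex III, 1 is cytochrome c, 17 belong to complex IV and 15 to ATP synthase. The other 3 names are Ndufaf1, a complex I assembly factor, Atp5s, coupling factor B of ATP synthase, and Cox4nb, a neighbour of the Cox4i1 gene that encodes no subunit and is now named Emc8 in RefSeq. They were kept out of the counts by complex.

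The cells were splenic B cells of C57/BL6 mice, purified by removing CD43-positive cells and activated in culture with interleukin-4 (10 ng/ml) and lipopolysaccharide (25 µg/ml). They were exposed for 20 h to retroviral supernatant with the cationic polymer polybrene (8 µg/ml), carrying the miR181b-GFP vector or the control-GFP vector. Cells with green fluorescence were sorted after 2 days, so both RNAs came from activated, transduced cells, and the age, sex and number of mice are not given in the labels. There was 1 RNA per vector, and both RNAs were hybridised together on 2 arrays of 1 slide. On array 1 the miR-181b RNA was labelled with Cy5 and the control RNA with Cy3, and on array 2 the dyes were exchanged. The second array repeats the same pair of RNAs, so no test between the vectors was possible and the values below describe these 2 RNAs. Log2 ratios have the miR-181b RNA on top and the control RNA below. A mean is over both arrays, and the value after ± is the distance of either array from it. In whole-cell RNA, fewer cells of a kind and less RNA per cell cannot be told apart.

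Complexes I to IV pass electrons from NADH and succinate to oxygen and pump protons across the inner mitochondrial membrane, except complex II, which pumps none. ATP synthase uses the returning protons to make ATP. Apart from complex II, each complex is built around a few catalytic core subunits, and in mammals many further, supernumerary subunits surround the core. Part of the core is encoded by mitochondrial DNA and lies outside the names followed here. Several small complex IV subunits exist as pairs of isoforms, one widespread and one typical of heart and skeletal muscle. Cox7a1 is the muscle isoform of subunit VIIa, also known from brown fat, and Cox7a2 is its widespread paralogue. In lymphocytes, stimulation raises the demand for respiration.

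The sequences that matter for the comparison are the expressed microRNA, the probe that read Cox7a1, and the stretches upstream of Cox7a1 and Cox7a2. The RefSeq mature sequence is shown with the seed (bases 2 to 8) in capitals. The Cox7a1 probe is shown because the largest difference among the members rests on this 1 probe of 60 bases. Cox7a2 had 2 probes of the same length that share 48 bases, so they are not separate readings of the gene.
mmu-miR-181b-5p: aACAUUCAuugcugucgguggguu
Cox7a1 probe: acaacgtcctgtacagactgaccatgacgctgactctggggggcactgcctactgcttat

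The seed match TGAATGT, searched on both strands, was in 0 of the 111 subunit probes and in 1.6% of all 41174 probes. A probe covers only a short stretch of a transcript, so this says nothing of sites elsewhere in it. Upstream sequence was taken from RefSeq promoters (GRCm38.p6), which matched 66 of the 80 subunit names, and the 250 bases before each start were searched. The hypoxia-linked core ACGTG or GCGTG, on either strand, was in 53.0% of the 66 member stretches, against 41.5% of all 27025. The stretches of the Cox7a pair are shown because these paralogues are the pair compared below, with the matches in capitals. Cox7a1 lies on the plus strand (chr7:30183921-30184170) and held 2 matches, and Cox7a2 lies on the minus strand (chr9:79759854-79760103) and held 1. Both stretches end 1 base before the annotated start.
Cox7a1 upstream: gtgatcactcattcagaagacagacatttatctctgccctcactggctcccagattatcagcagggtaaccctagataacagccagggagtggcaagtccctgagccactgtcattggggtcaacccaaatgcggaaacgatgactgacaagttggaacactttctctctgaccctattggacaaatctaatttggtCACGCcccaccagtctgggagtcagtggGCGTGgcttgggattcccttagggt
Cox7a2 upstream: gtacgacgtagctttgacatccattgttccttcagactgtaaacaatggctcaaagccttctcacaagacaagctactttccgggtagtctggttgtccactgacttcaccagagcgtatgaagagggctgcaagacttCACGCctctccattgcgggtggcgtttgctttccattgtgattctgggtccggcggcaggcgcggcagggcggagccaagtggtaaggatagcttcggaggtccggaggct

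Motifs of factors that regulate respiratory genes were counted in the same stretches. The NRF1 motif was searched as GCGCA, any base, then GCGC, on both strands. It was in 13 of the 66 member stretches (19.7%), against 4.23% of all stretches, among them those of Ndufb4, Sdha, Cox6a1 and Atp5h. The core CCGGAAG bound by GABP, on both strands, was in 12 of the 66 (18.2%), against 7.83% of all. A match is a description of letters, and neither motif set the choice of members.

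B cell markers were bright in both RNAs. Of 10 B cell markers, 8 were measured and the other 2, Cd74 and Cd79b, were saturated in both RNAs on both arrays. Pax5, a transcription factor of B cells, had log2 signals of 12.29 and 12.79 in the miR-181b RNA on arrays 1 and 2, against 12.50 and 12.44 in the control RNA. The 8 markers had a median ratio of 0.21, but -0.27 on array 1 and 0.75 on array 2, so their direction was not settled. Markers of T cells (7 of 7 measured), macrophages and monocytes (6 of 7) and erythroid cells (3 of 6) had medians of -0.07, 0.02 and -0.21. The brightest of each list reached log2 signals of 12.01, 11.15 and 13.12 in the miR-181b RNA, and 12.14, 11.16 and 13.37 in the control RNA. The erythroid markers differed in direction, with Hbb-b1 at -0.29, Epor at -0.21 and Hba-a1 at 0.39. The part of these markers in the results was not tested. The share of spots well above background ranged over 64.7% to 67.7% of an array's spots in either RNA. A gene was measured when a probe stood well above background in all 4 readings (both RNAs on both arrays) and was not saturated in all 4. The same probe also had to be no outlier spot on either array. Of its measured probes the brightest was used. This left 17697 measured gene names, among them 77 of the 80 subunits. Cox8b, the muscle isoform of subunit VIII, and Cox8c were not well above background in either RNA on either array, and no ratio is given. Ndufb7, a supernumerary complex I subunit, had a ratio of 0.30 on array 1, and its spot on array 2 was marked an outlier, so it enters no count. No gene name on the array was Cox7b2 or Ndufa4l2, so neither was measured.

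Over all 77 measured subunits, the respiratory chain and ATP synthase transcripts had a median ratio near 0 between miR-181b and control cells after loess. Cox7a1 was then the 1 gene past 1.5-fold. Loess is the normalisation that removes a brightness-dependent trend from the ratios of each array. Part of what it removed had the same sign in both dye orders. Without loess 55.3% of all measured genes were lower on both arrays and 9.07% higher on both, against 27.5% and 24.4% after it. What caused the trend was not tested. The median log2 ratio was -0.04 (array 1: 0.04, array 2: -0.17), against -0.01 for all measured genes (0.01 and -0.03). Subunits lower in the miR-181b RNA on both arrays numbered 19 (24.7%), where 27.5% of all measured genes were lower on both. Those higher on both numbered 6 (7.79%), where 24.4% of all genes were. The other 52 had opposite signs on the arrays, as did 8512 of the 17697 measured genes. When the mean had to reach 1.5-fold and both arrays to share its sign, 1 subunit was lower (1.3%, against 0.509% of all genes) and 0 were higher (against 0.814%). Without loess, the median of the subunits was -0.45 and that of all genes -0.20, which put the subunits 0.25 below all genes instead of 0.04. Then 49 subunits were lower on both arrays (63.6%, against 55.3% of all genes) and 0 were higher on both (against 9.07%), so the 6 higher ones did not keep that direction. At 1.5-fold, 12 were lower without loess (15.6%, against 5.18% of all genes) and 0 higher (against 0.0339%), so Cox7a1 was not alone past 1.5-fold in that setting.

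**Figure D1:**
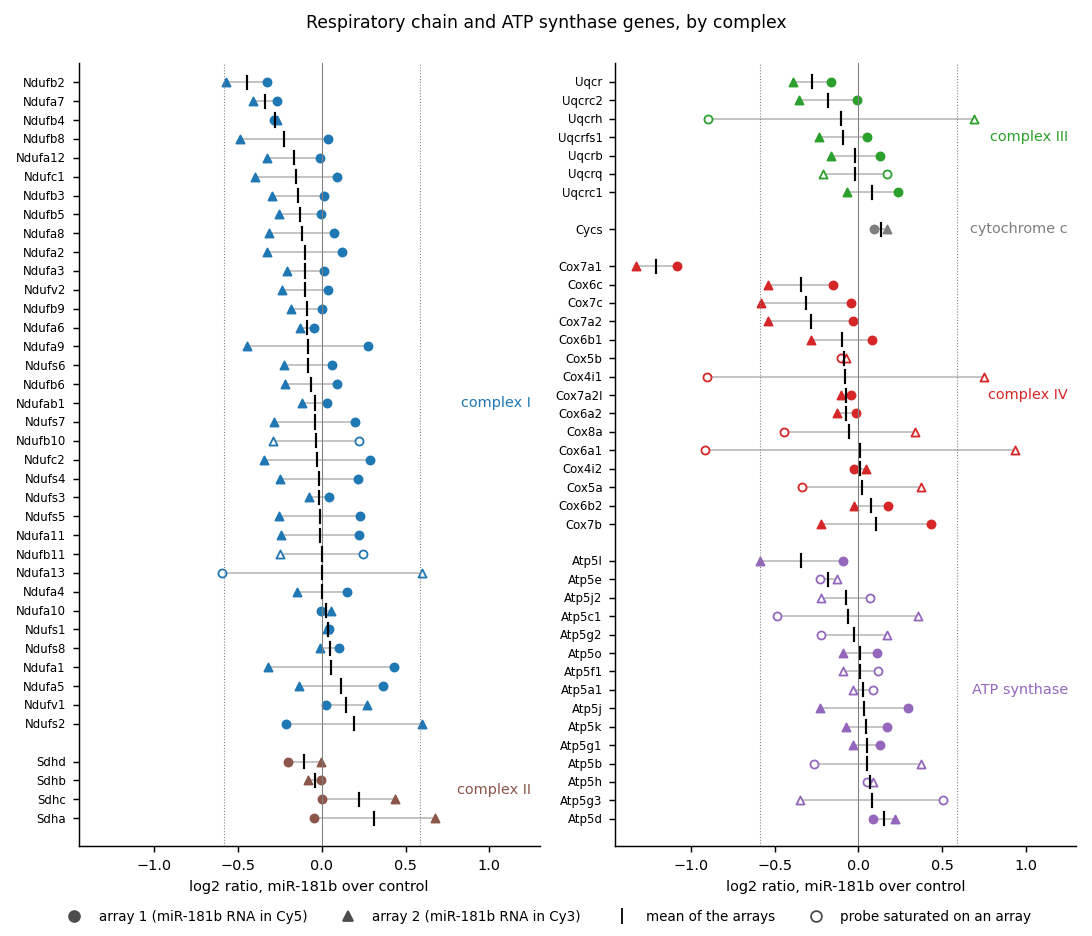
Log2 ratio of miR-181b over control (x axis) for the 77 measured subunits (y axis, by complex): circles are array 1, triangles array 2, black ticks their mean, open symbols probes saturated on an array, dotted lines 1.5-fold. Cox7a1 (mean -1.21) stands alone on the left, and the widest open pairs, in complexes III and IV, are saturated probes with opposite signs.

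Saturation bears on these counts, because the subunits are among the brightest features of the array. Of the 77, 57 lay in the brightest 10% of measured genes and 76 above the median brightness. The used probe of 19 subunits was saturated in at least 1 reading: 3 of complex I, 2 of complex III, 5 of complex IV and 9 of ATP synthase. All 19 were saturated in the Cy5 reading of the control RNA on array 2, and 10 also in the Cy5 reading of the miR-181b RNA on array 1, with 0 in Cy3. Their median ratio was -0.23 on array 1 and 0.09 on array 2, the reverse of the 58 other subunits (0.04 and -0.23). Across subunits the ratios of the arrays had a Pearson's r of -0.344 (Spearman's rho -0.262, n = 77), and 0.335 (0.116) over the 58 never saturated. These points share arrays and dyes and are not replicates.

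**Figure D2:**
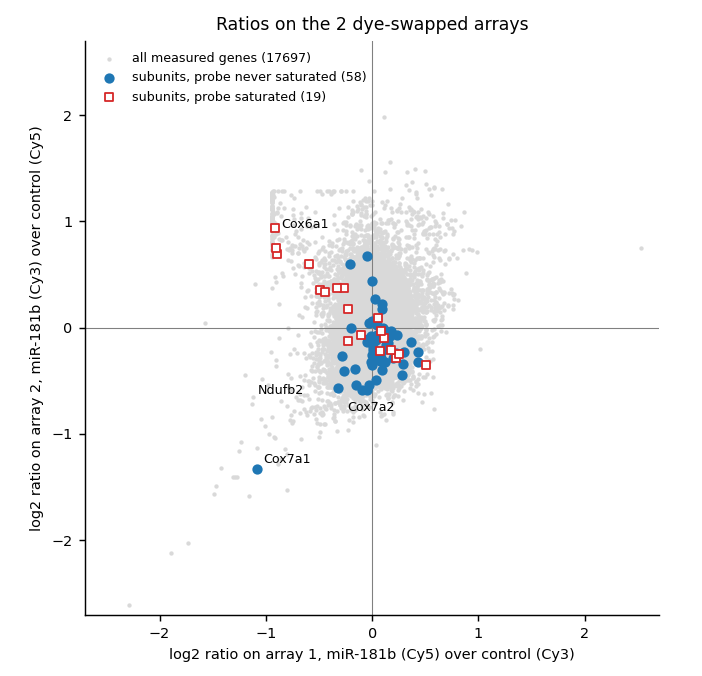
Log2 ratio of miR-181b over control on array 1 (x axis) against array 2 (y axis), for 17697 measured genes (grey), 58 subunits never saturated (filled) and 19 saturated subunits (open squares). Of the saturated subunits, 9 lie at the upper left, 7 at the lower right and 3 have the same sign on both arrays, and Cox7a1 lies at the lower left, at -1.08 and -1.33.

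When only never saturated probes were allowed, other probes of a gene could stand in, and 63 subunits remained. Their median was -0.04 (array 1: 0.04, array 2: -0.21), against -0.01 for the 17397 genes measured in this way. Of the 63, 18 were lower on both arrays (28.6%, against 28.0% of all genes) and 7 higher on both (11.1%, against 24.8%). At 1.5-fold, 1 was lower (1.59%, against 0.506%) and 0 were higher (against 0.816%). The 1 gene was again Cox7a1.

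**Figure D3:**
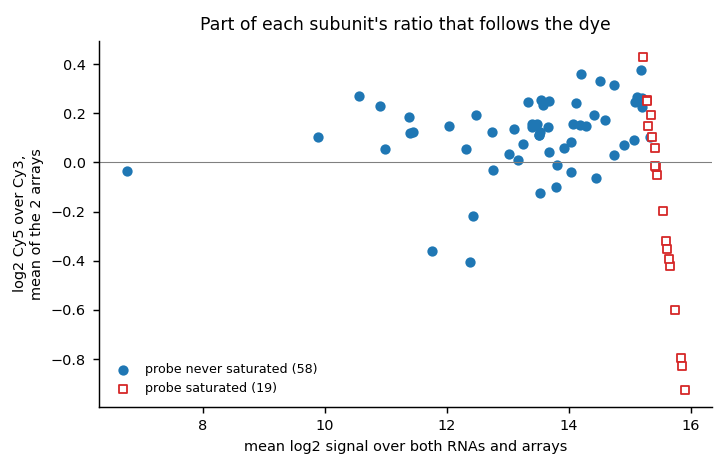
Log2 Cy5 over Cy3, averaged over the 2 arrays so that the difference between the RNAs cancels (y axis), against the mean log2 signal of each of the 77 subunits (x axis). Never saturated subunits (filled) mostly lie above 0, with a median of 0.13, and saturated ones (open) drop to -0.93 at Cox6a1, the brightest.

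Complex I, the NADH dehydrogenase, had a median of -0.04 over 35 measured subunits, 0.05 on array 1 alone and -0.25 on array 2 alone, and -0.07 over the 32 with a probe never saturated. Both arrays put 6 of the 35 lower (17.1%, against 27.5% of all genes) and 2 higher (5.71%, against 24.4%), and none reached 1.5-fold. The 2 higher ones are core subunits of the NADH-oxidising arm. Ndufv1, the flavoprotein that binds NADH, had ratios of 0.02 and 0.27 (0.15 ± 0.12). Ndufs1, the largest iron-sulphur subunit, had 0.05 and 0.03 (0.04 ± 0.01). Without loess their means were -0.25 and -0.35. Over the 7 core subunits encoded in the nucleus the median was 0.04 (0.04 on array 1, -0.01 on array 2), and over the 28 supernumerary subunits it was -0.08 (0.07 and -0.26), so the groups overlapped widely.

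The lowest complex I members were supernumerary subunits. Ndufb2 had log2 signals of 13.34 and 13.26 in the miR-181b RNA, against 13.66 and 13.83 in the control RNA, which gives -0.45 ± 0.12. Ndufa7 was at -0.34 ± 0.07, and its other probe gave -0.42. Ndufb4 was at -0.28 ± 0.01, with -0.29 on array 1 and -0.27 on array 2. In each of these 3 genes both miR-181b signals were below both control signals. Ndufa4, once assigned to complex I and now regarded as a complex IV subunit, had opposite signs (0.15 and -0.15). Ndufaf1, the assembly factor, was at -0.14 ± 0.02.

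Complex II, succinate dehydrogenase, ties the citric acid cycle to the chain, and all 4 of its subunits were measured and never saturated. Their median was 0.09, that of array 1 -0.03 and that of array 2 0.22. Without loess the direction turned, to -0.29, or -0.09 relative to all genes. Sdha, the flavoprotein that oxidises succinate, had -0.05 on array 1 and 0.67 on array 2 (0.31 ± 0.36), and its other probe averaged 0.08. Sdhb, the iron-sulphur subunit, was at -0.04 ± 0.04. The membrane anchors differed in direction: Sdhc had 0.00 and 0.44 (0.22 ± 0.22) and Sdhd had -0.20 and -0.01 (-0.11 ± 0.10). Neither anchor's difference exceeded 0.44 on an array.

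Complex III, the cytochrome bc1 complex, had a median of -0.09 over 7 subunits (array 1: 0.05, array 2: -0.21), and -0.06 over the 6 with a probe never saturated. Both arrays put 2 of the 7 lower (28.6%, against 27.5% of all genes) and 0 higher (against 24.4%). Uqcr, a small subunit now named Uqcr11, was at -0.28 ± 0.11. Uqcrc2, a core protein, was at -0.18 ± 0.17, with -0.01 on array 1. The Rieske iron-sulphur protein Uqcrfs1 had 0.05 and -0.23. The hinge protein Uqcrh was saturated in Cy5 on both arrays and had -0.90 on array 1 and 0.69 on array 2. Its other probe was saturated in the same readings and had -0.44 and 0.26, so neither gives a direction.

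Cytochrome c, the carrier between complexes III and IV and a trigger of apoptosis when released, is encoded in somatic cells by Cycs. Its ratios were 0.09 and 0.17 (0.13 ± 0.04), and its 3 probes lay between 0.11 and 0.13. It was one of the 6 subunits higher on both arrays, but without loess its mean was -0.28 (-0.20 for all genes).

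Complex IV, cytochrome c oxidase, held the clearest difference. Its 15 measured subunits had a median of -0.07 (array 1: -0.05, array 2: -0.10), and the 10 with a probe never saturated had -0.09. Both arrays put 7 of the 15 lower (46.7%, against 27.5% of all genes) and 0 higher (against 24.4%), and 1 was at least 1.5-fold lower (6.67%, against 0.509%). After loess, complex IV had the only median below 0 on both arrays among the 5 complexes.

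Cox7a1 had log2 signals of 10.82 and 10.76 in the miR-181b RNA on arrays 1 and 2, against 11.90 and 12.08 in the control RNA. Both miR-181b signals lay more than 1 log2 unit below both control signals. Its ratios were -1.08 and -1.33, a mean of -1.21 ± 0.12 or 2.31-fold lower in miR-181b cells, and its probe was never saturated. By mean ratio it was the 12th lowest of the 17697 measured gene names.

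Cox7a2 had log2 signals of 13.50 and 13.30 in the miR-181b RNA, against 13.53 and 13.84 in the control RNA. On array 1 the signals were nearly equal, and on array 2 the miR-181b RNA was lower. The ratio was -0.29 ± 0.25 (-0.03 and -0.54), its overlapping second probe averaged -0.26, and 6 subunits that were lower on both arrays had a lower mean. The ratio of Cox7a1 was below that of Cox7a2 by 1.05 on array 1 and 0.79 on array 2, a mean difference of -0.92 ± 0.13, or 1.89-fold. The spread covers the arrays only. Signals of different probes are not comparable as amounts, so the share of each paralogue in the cells was not measured. The relative Cox7a2l, which is known to join complexes III and IV into supercomplexes, was at -0.07 ± 0.03.

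**Figure D4:**
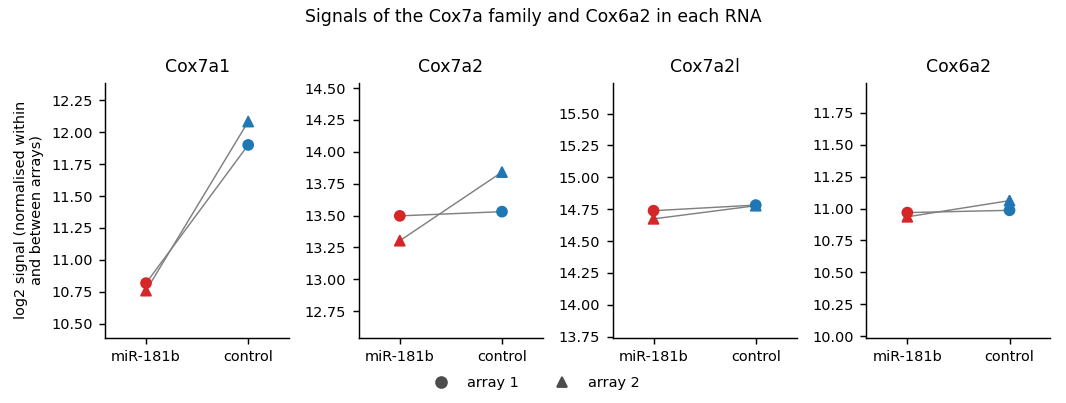
Log2 signal, normalised within and between arrays (y axis), in the miR-181b and control RNAs (x axis) for 4 genes, with circles for array 1, triangles for array 2 and lines joining the RNAs of an array. Each panel spans 2 log2 units around its own centre; Cox7a1 drops by over 1 unit in the miR-181b RNA on both arrays, and Cox7a2 differs mainly on array 2.

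In the other isoform pairs no such difference was measured, although several of these probes were saturated. Cox6a2, the muscle isoform of subunit VIa, was well above background and at -0.07 ± 0.06, with -0.02 on array 1 and -0.13 on array 2. Its widespread counterpart Cox6a1 was saturated in Cy5 on both arrays and had -0.92 and 0.93, so its ratio followed the dye. Cox4i1, the regulatory subunit IV of most tissues, was likewise saturated (-0.91 and 0.75). Cox4i2, its isoform known from lung and as a hypoxia-inducible gene, had among the dimmest measured signals, 6.72 and 6.78 in the miR-181b RNA, against 6.75 and 6.73 in the control RNA. Its ratio was 0.01 ± 0.04, or 0.18 with the scanner software's own processed signals. Cox6b1, the widespread subunit VIb, was at -0.10 ± 0.18 and its testis isoform Cox6b2 at 0.08 ± 0.10, both with opposite signs. Cox7b was at 0.10 ± 0.33 and Cox8a, saturated, at -0.05 ± 0.39.

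Other small complex IV subunits were lower on both arrays by less. Cox6c was at -0.34 ± 0.19 and Cox7c at -0.31 ± 0.27, each with the larger difference on array 2 (-0.54 and -0.58). Cox5b, a zinc-binding subunit saturated on array 2, was at -0.09 ± 0.01. Muscle and brown fat markers, which accompany Cox7a1 in its usual tissues, were dim in both RNAs. Of 11 muscle markers, 5 were measured, at log2 signals of 6.62 to 8.69 in the miR-181b RNA and 6.66 to 8.61 in the control RNA. Their linear signals summed to 1100 and 867 in the miR-181b RNA, against 1067 and 923 in the control RNA, and their median ratio was 0.01. Myh6, Myl2, Mb and Ckmt2 were not well above background in either RNA on either array, and neither were the brown fat markers Ucp1, Cidea and Elovl3. The other unmeasured markers did reach it in part. Myh7 was well above background on 2 arrays in either RNA, yet no probe of it met every requirement for a measured gene. Which requirement failed is not given here. Acta1 was so on 2 arrays in the miR-181b RNA and 1 in the control RNA. The brown fat marker Ppara was so on 2 and 0 arrays. The 3 measured brown fat markers, of 7, had log2 signals of 6.96 to 9.31 in the miR-181b RNA and 7.07 to 9.60 in the control RNA. Their linear signals summed to 1024 and 999 in the miR-181b RNA, against 1027 and 1168 in the control RNA.

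ATP synthase had a median of 0.03 over 15 subunits (array 1: 0.08, array 2: -0.08), and 0.04 over the 10 with a probe never saturated. Both arrays put 2 of the 15 lower (13.3%, against 27.5% of all genes) and 2 higher (13.3%, against 24.4%), and none reached 1.5-fold. Without loess the median turned to -0.41, or -0.20 relative to all genes. The catalytic F1 part (5 subunits, 4 of them saturated) had a median of 0.03, and the membrane part with the stalks (10 subunits, 5 saturated) 0.02. Within F1, Atp5d, subunit delta of the central stalk, was at 0.15 ± 0.07. Atp5e, subunit epsilon beside it, was at -0.18 ± 0.05 and saturated on array 2. Atp5l, the membrane subunit g, had log2 signals of 15.05 and 14.80 in the miR-181b RNA, against 15.14 and 15.38 in the control RNA, or -0.34 ± 0.25. Atp5h, subunit d of the outer stalk, was at 0.07 ± 0.02. The catalytic subunit beta, Atp5b, had -0.27 and 0.37 with its brightest probe, saturated in Cy5 on both arrays. Its brightest never saturated probe had 0.04 and 0.56 (0.30 ± 0.26). Atp5s, outside these counts, was at -0.39 ± 0.17 and its other probe at -0.26.

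Of the 20 subunits with more than 1 measured probe, 2 had probes that differed in sign. These were Atp5f1, a stalk subunit now named Atp5pb, with probes between -0.01 and 0.08, and Uqcrq, a small complex III subunit, with probes between -0.02 and 0.01.

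Genes that build or feed the chain also had list medians near 0. For the counts in these lists, 27.5% of all measured genes were lower on both arrays and 24.4% higher on both. Assembly factors of other names (31 measured of 32) had a median of -0.03 (array 1: 0.01, array 2: -0.11), and both arrays put 10 lower and 4 higher. The complex IV assembly factors Cox14 and Cox11 were at -0.36 ± 0.19 and -0.21 ± 0.12. Others went the other way on both arrays: Cox10 had 0.04 and 0.35, and Uqcc1 had 0.16 and 0.20. Cox10 was dim, with log2 signals of 7.47 and 7.57 in the miR-181b RNA, against 7.44 and 7.22 in the control RNA. The other probe of Uqcc1 averaged -0.055. Electron carriers and subunits of other names (14 measured of 16), such as cytochrome c1, had a median of 0.04, with 1 lower and 4 higher on both arrays. Coq9, a factor of ubiquinone synthesis, was at 0.28 ± 0.16. Regulators of mitochondrial biogenesis (15 measured) had a median of 0.03, with 5 lower and 3 higher. Among them Tfam, the packaging and transcription factor of mitochondrial DNA, was at 0.30 ± 0.14, although its 3 probes lay between -0.04 and 0.30. The coactivator Ppargc1a was at -0.30 on both arrays, and its other probe averaged -0.06. Citric acid cycle enzymes (14 measured) had a median of 0.05, with 2 lower and 2 higher, and 1 of them was at least 1.5-fold higher (0.814% of all genes were). This was Ogdh, a subunit of the oxoglutarate dehydrogenase complex, with 0.11 on array 1 and 1.13 on array 2.

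The list of hypoxia-linked genes of mitochondrial proteins had much lower ratios. All 8 were measured, 8 were lower on both arrays (27.5% of all genes were) and 7 at least 1.5-fold lower (0.509% of all genes), with medians of -1.07 on array 1, -1.22 on array 2 and -1.15 on the mean. This list was drawn up with these values already known, so its counts, direction and range are no separate support for the ratio of Cox7a1. Cox4i2, a complex IV subunit also known as hypoxia-inducible, is not on the list, and its mean ratio was 0.01. Higd1a, a hypoxia-inducible protein of the inner membrane that binds complex IV, had log2 signals of 13.66 and 13.59 in the miR-181b RNA, against 14.31 and 14.36 in the control RNA (-0.71 ± 0.06). Its other probe averaged -0.51. The mitophagy receptor gene Bnip3l was at -0.77 ± 0.03. Lonp1, the matrix protease that is known from cell lines to degrade Cox4i1 protein in hypoxia, was at -0.47 ± 0.23. The ratio of Cox7a1 (-1.21) lay inside the range of this list (-2.45 to -0.47), while the other 76 measured subunits lay above its highest value. That upper bound depends on the probes used. The other probe of the listed gene Fam162a averaged -0.36, above the ratio of Ndufb2 (-0.45).

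**Figure D5:**
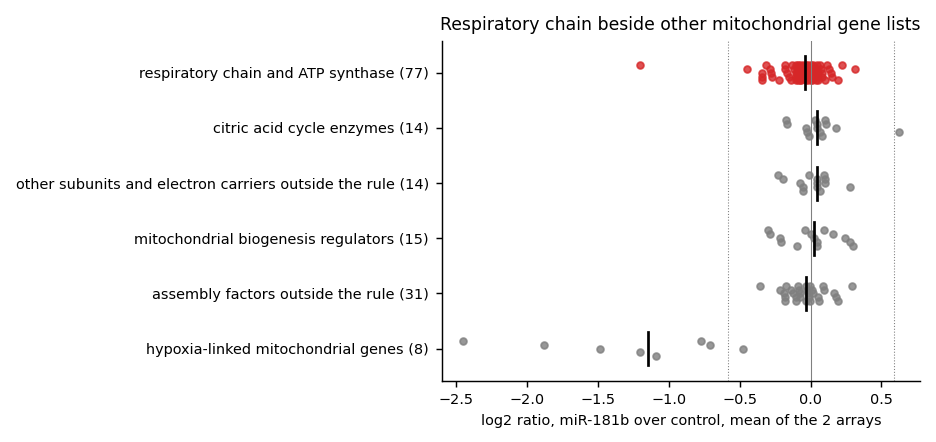
Mean log2 ratio of miR-181b over control (x axis) for the 77 measured subunits (red) and the measured members of 5 other mitochondrial lists (grey), with the number measured in brackets, black ticks for medians and dotted lines at 1.5-fold. The subunits sit around -0.04 with Cox7a1 apart at -1.21, and the hypoxia-linked list is centred at -1.15.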

How the data were processed

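The scanner files were deposited as written by Agilent Feature Extraction (version 9.1.3.1 per the file headers). For either dye they give uncorrected intensities, a mean over the spot and a median over its surrounding background. The deposited processed intensity of each channel, and the log10 ratio made from it, had background and a lowess dye trend removed, per the file headers. Those served as an alternative. The limma package (3.58.1, in R 4.3.3) applied normexp background correction (offset 50) and then loess within each array, in which control spots had no weight. Each array had 45018 spots for 41174 probes. Outlier spots were left out (7 on array 1, 21 on array 2) and saturated spots kept. Array 2's ratio was turned in sign. Log2 signals per RNA were taken after Aquantile normalisation.

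The arrays count as 1 replicate, no test was run, and their number limits the precision. Members and gene lists were chosen with earlier results of these data known. Named were subunits past 1.5-fold, up to 3 lowest and 3 highest per complex among those of 1 sign, complex II, Cycs, the isoform pairs and up to 4 genes per list, and a few others (Ndufb7, Uqcrfs1, Uqcrh, Cox5b, Atp5b, Lonp1 and Higd1a among them) after their values were seen. Current symbols were taken from RefSeq, and 102 of the 116 member probes matched by accession. The steps were tested on simulated arrays without saturated spots and with known changes at middle brightness only. That test does not cover the brightest subunits. Its brightness trend lay in Cy5 on both arrays, so a trend that follows the RNA is not covered either. Alternatives were the scanner's processed signals, no loess, scaling between arrays, no filter on dim probes, saturated probes left out, the mean of all probes, each array alone and a 2-fold threshold.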

Additional observations from a re-analysis of the deposited data

How the results depend on the processing

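Without loess, with each array centred on its median, every median given next moved by more than the spread of the arrays: the subunits to -0.449 (against -0.204 for all genes), those never saturated to -0.440, complex I to -0.459, complex II to -0.294, complex III to -0.486, complex IV to -0.489, ATP synthase to -0.407 and Ndufaf1 to -0.499. Cox7a1 was then at -1.551 and Cox7a2 at -0.685, and 12 subunits were at least 1.5-fold lower, 49 lower on both arrays and 0 higher on both. Relative to all genes, complex I was at -0.255, complex II at -0.091, complex III at -0.282, complex IV at -0.285 and ATP synthase at -0.203, so complex II and ATP synthase changed sign. The cause was not tested. On 1 array alone, without replicate 1 or without replicate 2, between 2 and 5 subunits were at least 1.5-fold lower, between 0 and 6 at least 1.5-fold higher, between 32 and 58 lower and between 19 and 45 higher, since by construction no shared sign was then asked. The shares of all genes on 1 array are not given here, so these counts show no trait of the subunits. Under the other alternatives (the scanner's processed signals, scaling between arrays, no dim filter, saturated probes left out, the mean of all probes), medians, counts, Cox7a1 and Cox7a2 stayed within the spread of the arrays or, for counts, within 1.5 times. Cox7a1 was between -1.271 and -1.205 in these. Cox7a1 minus Cox7a2 was between -1.051 and -0.789 over all alternatives, with -0.866 without loess. Among 28 other named members, 21 moved by more than that spread without loess and 1, Cox4i2, with the scanner's signals. No paired analysis was possible because the 2 arrays form 1 group and the values come from no test. The slide as a block was not run, since there was 1 slide. The deposited value table was not run, since its identifiers matched no probe column. With 1 pair of RNAs the arrays show technical spread only, and 16 of the 19 saturated subunits have opposite signs on the arrays. So do 353 of all 420 saturated gene names, 36 of the 58 subunits never saturated and 8512 of all 17697 measured genes.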
